A study of Mus musculus with 6 samples.

Results

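The adenosine axis genes described here are 4 genes of the deposited value table: Ada and Adora2a, with Nt5e and Entpd1, which were also present. They were taken by name, not by a rule on measured values, from a table of 518 genes, 20 of them housekeeping genes. Earlier results of these data were known when they were chosen. All 4 passed the filter of at least 20 counts in at least 2 libraries, as did 430 of the 518 genes.

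Extracellular ATP is converted to AMP by the ectoenzyme CD39, encoded by Entpd1, and AMP is converted to adenosine by CD73, encoded by Nt5e. Adenosine is sensed by the receptor encoded by Adora2a, which raises cAMP and restrains killing and cytokine secretion by natural killer (NK) cells and T cells. Adenosine deaminase, encoded by Ada, ends the signal by turning adenosine into inosine, and its loss causes severe combined immunodeficiency.

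NK cells of female C57BL/6 mice were expanded for 12 days in an IL-15/IL-15Ra conjugate at 10 ng/mL, and transcripts were counted with a NanoString panel, which reads fluorescent barcodes hybridised to each transcript. There were 3 groups of 2 libraries. The first was expanded with IL-15/IL-15Ra and AgN2a-4P and labelled with the treatment Anti-TIM-3 antibody (replicates 1 and 2), the second was expanded in the same way with the treatment None (replicates 2 and 3), and the third was expanded with IL-15/IL-15Ra without AgN2a-4P and with the treatment None (replicates 1 and 3). They are called anti-TIM-3, untreated feeder and IL-15 cultures. AgN2a-4P is a mouse neuroblastoma feeder line engineered to carry co-stimulatory ligands, and it was irradiated at 100 Gy. The antibody step lasted 4 h. The study's design text names an isotype control antibody that the labels of the untreated libraries do not, so an effect of the incubation cannot be told apart from one of the antibody. No age is given, and nothing says whether libraries of a group came from separate animals, so the spread behind the p-values is that between these samples and may be technical.

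The libraries held between 299485 and 441185 counts over the 518 genes. All 11 NK cell markers on the list used here were above the negative controls in every library. Of 9 listed T cell markers, Cd3d and Cd28 were in the table, and both were above the negative controls in every library. Cd3d had between 24 and 192 counts. Of 4 measured B cell markers, 1 to 3 were above the negative controls in each library. Ms4a1 had between 8 and 15 counts, and Tnfrsf13c had between 13 and 26. Of 9 measured myeloid and dendritic cell markers, 7 or 8 were above the negative controls in each library, and Csf1r was above them in none.

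The promoters of Ada and Nt5e are shown because these were the members whose transcripts passed the test. RefSeq windows on GRCm38.p6, 250 bases before to 50 bases after the start site, were held for 3 of the 4 genes. The windows are chr2:163750190-163750489 on the minus strand for Ada and chr9:88327359-88327658 on the plus strand for Nt5e. Capitals mark GCGTG, a core bound by hypoxia-inducible factors, on either strand.
Ada promoter: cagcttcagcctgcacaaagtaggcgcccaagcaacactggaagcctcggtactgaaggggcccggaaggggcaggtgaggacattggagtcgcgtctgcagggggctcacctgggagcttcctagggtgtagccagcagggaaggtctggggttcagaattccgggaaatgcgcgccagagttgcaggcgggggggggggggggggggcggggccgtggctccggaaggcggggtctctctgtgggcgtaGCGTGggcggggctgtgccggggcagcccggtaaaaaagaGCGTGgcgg
Nt5e promoter: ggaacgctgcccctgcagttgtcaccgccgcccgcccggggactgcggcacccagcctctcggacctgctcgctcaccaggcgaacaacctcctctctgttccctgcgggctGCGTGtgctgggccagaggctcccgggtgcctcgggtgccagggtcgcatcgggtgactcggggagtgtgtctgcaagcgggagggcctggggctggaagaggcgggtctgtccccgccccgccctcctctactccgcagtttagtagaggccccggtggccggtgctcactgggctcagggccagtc
Both windows were rich in G and C, at 68% for Ada and 71% for Nt5e, against a median of 52.7% over 32851 windows of this length. Ada had 2 GCGTG matches, beginning 1 and 41 bases after the start site, and Nt5e had 1, beginning 138 bases before it. GCGTG was found in 32.4% of all windows, and a match is a description of the letters alone. The NF-kB type pattern GGG, any 5 bases, CC matched 6 times in Ada and 2 times in Nt5e, overlapping matches included, and occurred in 50.8% of all windows. The cAMP response element TGACGTCA and its core TGACG were in neither window, and were found in 1.79% and 20.8% of all windows. Of the other patterns searched, on both strands, ACGTG (19.6% of windows) and TGACTCA (5.20%) were in neither, and TTCNNNGAA (8.30%) occurred once, in Ada. Entpd1, which did not pass the test, had windows beginning at chr19:40612116 and chr19:40659520, not shown. Their G and C content was 64% and 48.7%. The first held 1 GCGTG match, beginning 18 bases before the start site, and the other none. TGACG matched 1 time in each.

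The first comparison is that of anti-TIM-3 with untreated cultures, all expanded on feeder cells. Ada and Nt5e rose, and Entpd1 and Adora2a did not pass the test. Expression is given as a normalised count, which is the count scaled by the authors so that the 20 housekeeping probes have the same mean log2 value in every library. Differences were tested with limma over all 430 genes, with Benjamini-Hochberg adjustment at 0.05, and are log2 fold changes ± the standard error of the fit.

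Ada, the adenosine-degrading enzyme, reached 100.2 and 67.7 normalised counts in the anti-TIM-3 cultures (replicates 1 and 2), against 29.7 and 17.3 in the untreated feeder cultures (replicates 2 and 3). Both anti-TIM-3 cultures lay above both untreated feeder cultures, with no overlap. In these bulk samples, fewer cells of a type and less RNA per cell cannot be told apart. The counts behind these values were 89 and 39 in the anti-TIM-3 cultures, against 30 and 14 in the untreated feeder cultures. The lowest of them, 14 in untreated feeder replicate 3, has an exact 95% Poisson interval of 7.65 to 23.5 counts (counting error only) and stood above that library's limit of 12.1, the mean of its negative controls plus 2 SD. The mean normalised count was 84.0 ± 23.0 in the anti-TIM-3 cultures and 23.5 ± 8.77 in the untreated feeder cultures (SD, n = 2 each). The log2 fold change was 1.86 ± 0.43, a 3.63-fold rise (limma adjusted p = 0.0193). It was 1.40 above the median of all tested genes, which was itself at 0.47 on this scale.

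Nt5e, encoding the adenosine-producing CD73, had 57.4 and 104.2 normalised counts in the anti-TIM-3 cultures, against 28.7 and 24.7 in the untreated feeder cultures. The groups did not overlap, and the untreated feeder cultures lay close together. The counts were 51 and 60 in the anti-TIM-3 cultures, against 29 and 20 in the untreated feeder cultures. The log2 fold change was 1.54 ± 0.48, with a limma adjusted p of 0.0464, just under the threshold.

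Entpd1, encoding the ATP-hydrolysing CD39, had 90.1 and 159.7 normalised counts in the anti-TIM-3 cultures, against 57.4 and 89.0 in the untreated feeder cultures. The lower anti-TIM-3 culture and the higher untreated feeder culture were almost level. The log2 fold change was 0.75 ± 0.67 (limma adjusted p = 0.403), with a 95% confidence interval of -0.87 to 2.37.

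Adora2a, the adenosine receptor gene, had 38.3 and 86.8 normalised counts in the anti-TIM-3 cultures, against 50.5 and 76.6 in the untreated feeder cultures. The anti-TIM-3 cultures enclosed the untreated feeder cultures on both sides. The log2 fold change was -0.11 ± 0.48 (limma adjusted p = 0.862), and its 95% confidence interval of -1.27 to 1.05 does not exclude a 2-fold difference in either direction. Counts per library were 34 and 50 in the anti-TIM-3 cultures, against 51 and 62 in the untreated feeder cultures.

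**Figure D1:**
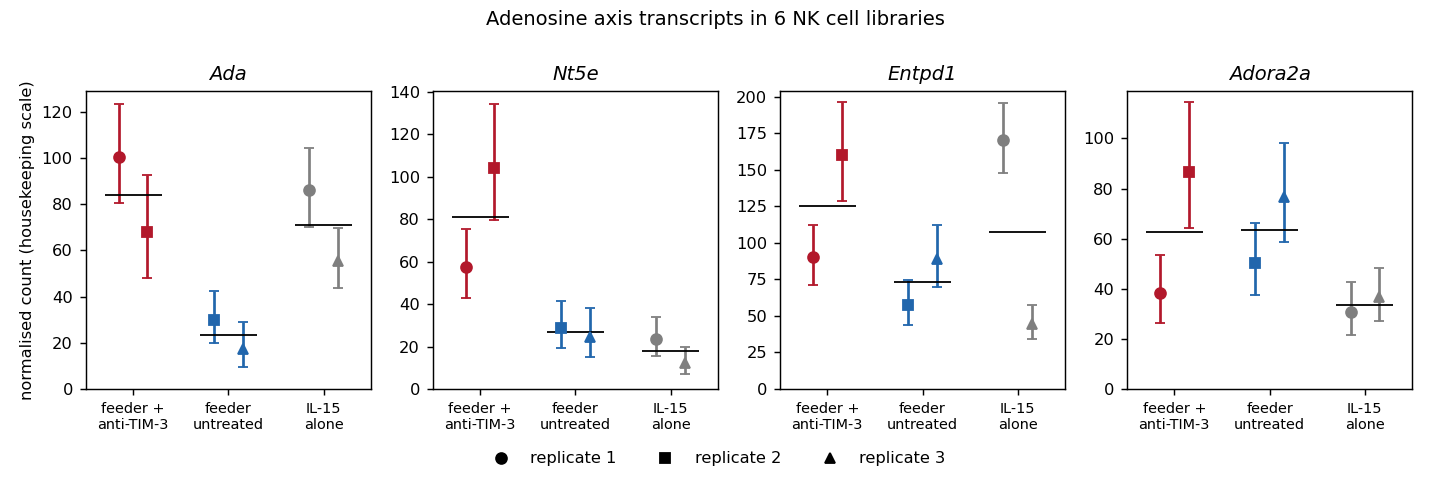
Normalised counts (y axis, housekeeping scale) of the 4 adenosine axis genes in each library, by group on the x axis; bars are exact 95% Poisson intervals of the counts, horizontal lines are group means, and symbols give the replicate number. Ada is lowest in both untreated feeder cultures (29.7 and 17.3), Nt5e is highest in both anti-TIM-3 cultures (57.4 and 104.2), and Entpd1 of the IL-15 cultures is split between 170.2 and 44.6.

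Thus 2 of the 4 genes were called, both higher, where 38.6% of all tested genes were called and 31.4% were called higher. The groups did not overlap, with the anti-TIM-3 cultures higher, for Ada, Nt5e and Entpd1, as for 60.2% of all tested genes. The median log2 fold change was 1.14 over the 4 genes and 0.47 over all tested genes. Neither call passed on any of the 4 other scales (total count, median of ratios, positive controls and trimmed mean of M values, TMM), where the log2 fold change ran from 1.26 to 1.60 for Ada (limma adjusted p of 0.0598 to 0.0969) and from 0.96 to 1.28 for Nt5e (0.0817 to 0.292). On those scales Adora2a ran from -0.62 to -0.37 and Entpd1 from 0.22 to 0.49, and neither gene passed. Without untreated feeder replicate 3 the call on Ada ended (log2 fold change 1.47, limma adjusted p = 0.116), as it did on leaving out anti-TIM-3 replicate 1 (1.58, limma adjusted p = 0.0708) or anti-TIM-3 replicate 2 (2.14, limma adjusted p = 0.0532). The call on Nt5e ended without untreated feeder replicate 2 (1.65, limma adjusted p = 0.135), untreated feeder replicate 3 (1.43, limma adjusted p = 0.169) or anti-TIM-3 replicate 2 (1.11, limma adjusted p = 0.243).

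The authors' deposited table of a comparison between groups named only by number holds the same 4 genes. Its log2 fold changes lay within 0.1 of the anti-TIM-3 minus untreated feeder differences for 491 of 498 genes. The authors' deposited table gave 1.8 for Ada with a q-value of 0.0056. The authors' deposited table gave 1.5 for Nt5e with a q-value of 0.15, so Nt5e did not pass there. For Entpd1 and Adora2a the authors' deposited table gave 0.74 and -0.11, with q-values of 0.52 and 0.85.

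**Figure D2:**
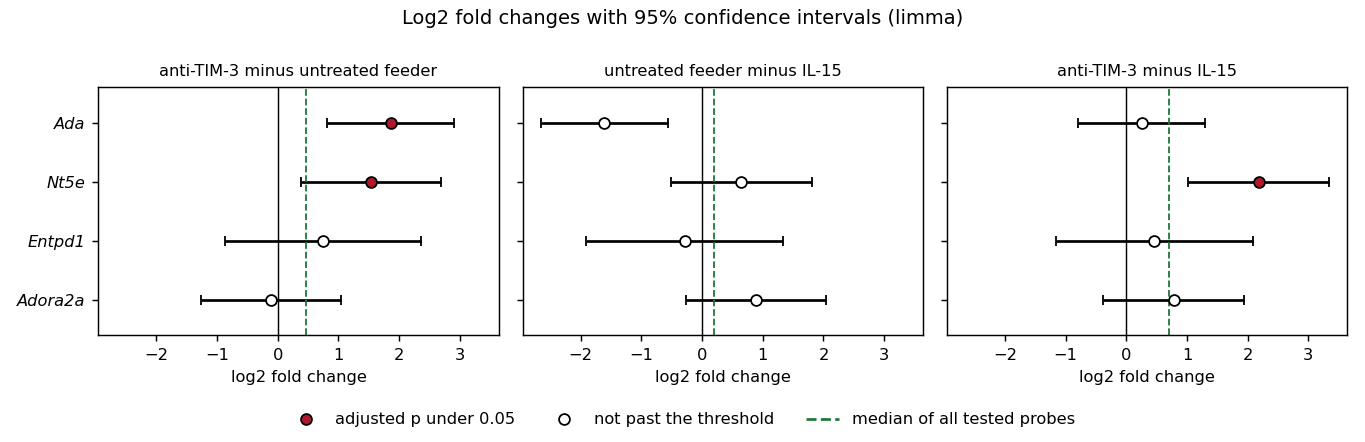
Log2 fold changes (x axis) of the 4 genes with 95% confidence intervals in the 3 comparisons, from limma on the housekeeping scale; filled points passed the adjusted threshold and the dashed line is the median of all tested genes. Ada lies at 1.86 in the anti-TIM-3 against untreated feeder comparison and at -1.61 in the untreated feeder against IL-15 comparison, which share the untreated feeder cultures, and Nt5e passed in both comparisons that involve anti-TIM-3.

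The feeder comparison asks what expansion on AgN2a-4P changed in the absence of antibody. No tested gene passed the threshold in limma, 0% of 430, with 39 at an unadjusted p under 0.05 and 0 called with voom weights. This comparison shares its untreated feeder cultures with the first and its IL-15 cultures with the last. Ada had normalised counts of 29.7 and 17.3 in the untreated feeder cultures, against 86.0 and 55.6 in the IL-15 cultures (replicates 1 and 3). Both untreated feeder cultures lay below both IL-15 cultures, an order shared by 5.81% of tested genes. Its log2 fold change of -1.61 ± 0.43 was the lowest of all 430 tested genes on the housekeeping scale (95% confidence interval -2.66 to -0.56, unadjusted p = 0.00930, limma adjusted p = 0.441). On the 4 other scales it ran from -1.89 to -1.70.

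Adora2a had normalised counts of 50.5 and 76.6 in the untreated feeder cultures, against 30.9 and 36.6 in the IL-15 cultures. Both untreated feeder cultures were the higher, as for 34.4% of tested genes, and the log2 fold change was 0.89 ± 0.48 (limma adjusted p = 0.638). Nt5e had 28.7 and 24.7 in the untreated feeder cultures, against 23.4 and 12.4 in the IL-15 cultures, with a log2 fold change of 0.64 ± 0.48 (limma adjusted p = 0.767). These groups did not overlap either, but replicate 2 of the feeder group and replicate 1 of the IL-15 group had nearly equal counts, 29 and 28. Entpd1 had 57.4 and 89.0 in the untreated feeder cultures, against 170.2 and 44.6 in the IL-15 cultures. The IL-15 cultures differed from each other 3.82-fold, with 204 counts in replicate 1 and 61 in replicate 3, more than any other pair of replicates of the 4 genes. The log2 fold change of Entpd1 was -0.29 ± 0.67 (limma adjusted p = 0.941), and without IL-15 replicate 1 it was 0.68 (limma adjusted p = 0.962).

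The last comparison sets the anti-TIM-3 cultures, which also had feeder cells, against IL-15 alone. Nt5e rose, and the other 3 genes did not pass. Nt5e had 57.4 and 104.2 normalised counts in the anti-TIM-3 cultures, against 23.4 and 12.4 in the IL-15 cultures, with no overlap. Its mean was 80.8 ± 33.0 in the anti-TIM-3 cultures and 17.9 ± 7.73 in the IL-15 cultures (SD, n = 2 each). The log2 fold change was 2.18 ± 0.48, a 4.54-fold rise (limma adjusted p = 0.0123), against a median of 0.70 over all tested genes. In this comparison 50.9% of tested genes were called, and 44% were called higher. The anti-TIM-3 cultures lay above the IL-15 cultures with no overlap for Nt5e and Adora2a, as for 67.4% of tested genes. The call on Nt5e passed on 3 of the 4 other scales, at log2 fold changes of 1.39 to 1.64, and not with positive controls (1.45, limma adjusted p = 0.0677). It ended when anti-TIM-3 replicate 2 was left out (1.75, limma adjusted p = 0.0730).

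Ada had 100.2 and 67.7 in the anti-TIM-3 cultures, against 86.0 and 55.6 in the IL-15 cultures, and the groups overlapped. Its log2 fold change was 0.25 ± 0.43 (limma adjusted p = 0.646, 95% confidence interval -0.80 to 1.30), and it took the other sign, -0.48 to -0.28, on the 4 other scales. Adora2a had 38.3 and 86.8 in the anti-TIM-3 cultures, against 30.9 and 36.6 in the IL-15 cultures, where the lower anti-TIM-3 value and the higher IL-15 value were almost level. Its log2 fold change was 0.78 ± 0.48 (limma adjusted p = 0.204), and it was 0.04 to 0.24 on the other scales. Entpd1 had 90.1 and 159.7 in the anti-TIM-3 cultures, which lay between the IL-15 values of 170.2 and 44.6, with a log2 fold change of 0.46 ± 0.67 (limma adjusted p = 0.588) that ran from -0.27 to -0.08 on the other scales.

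**Figure D3:**
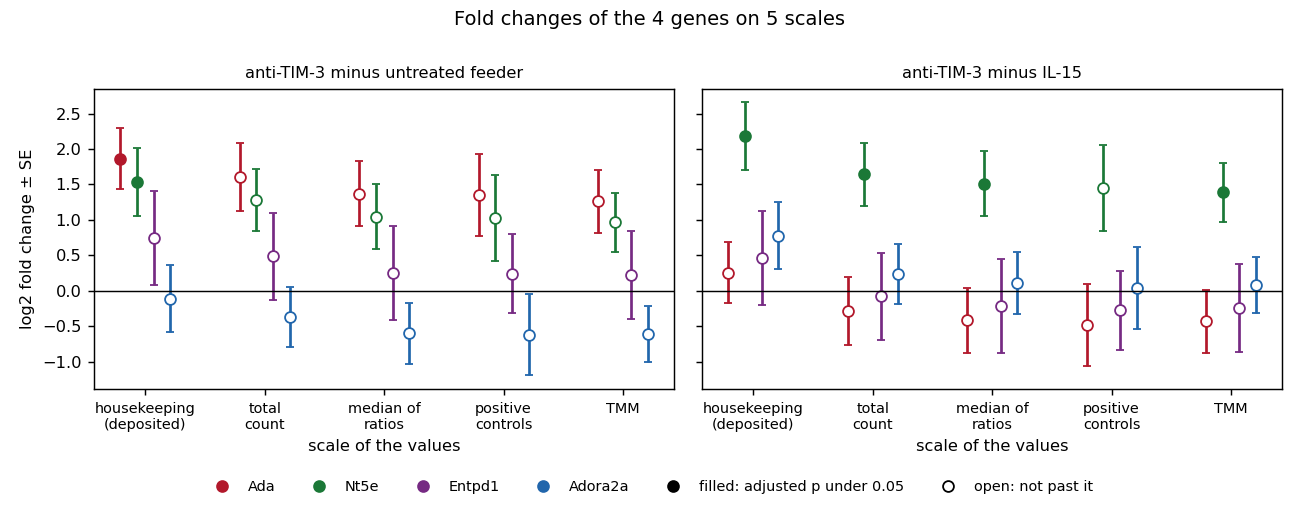
Log2 fold changes ± SE (y axis) of the 4 genes on the deposited housekeeping scale and on 4 other scales (x axis), for anti-TIM-3 against untreated feeder cultures (left) and against IL-15 cultures (right); filled points passed the adjusted threshold. Every point of Ada and Nt5e in the left panel is above 0 (0.96 to 1.86), and Ada in the right panel changes sign with the scale (0.25 on the housekeeping scale, -0.48 to -0.28 on the others).

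The order of mean levels differed between the genes. For Ada on the housekeeping scale it was anti-TIM-3, IL-15 and untreated feeder from high to low, with IL-15 above anti-TIM-3 on the 4 other scales, and neither anti-TIM-3 against IL-15 nor untreated feeder against IL-15 passed the test. For Nt5e the order was anti-TIM-3, untreated feeder and IL-15, and untreated feeder against IL-15 did not pass the test. For Adora2a the means were 62.6 ± 34.3 in the anti-TIM-3 cultures, 63.6 ± 18.5 in the untreated feeder cultures and 33.7 ± 4.03 in the IL-15 cultures (SD, n = 2 each), and no neighbouring pair passed the test. For Entpd1 they were 124.9 ± 49.2, 73.2 ± 22.3 and 107.4 ± 88.8 in the anti-TIM-3, untreated feeder and IL-15 cultures on the housekeeping scale (SD, n = 2 each), with none past the test and IL-15 above anti-TIM-3 on the 4 other scales.

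The scale moved with the groups. The 20 housekeeping genes made up 10.7% and 10.1% of the counts in the anti-TIM-3 cultures, against 13.17% and 12.95% in the untreated feeder cultures and 13.4% and 13.9% in the IL-15 cultures. A count was worth 1.13 and 1.74 normalised units in the anti-TIM-3 cultures, against 0.99 and 1.24 in the untreated feeder cultures and 0.83 and 0.73 in the IL-15 cultures. As counts per 100000, Adora2a was at 8.30 and 16.7 in the anti-TIM-3 cultures, 13.4 and 17.2 in the untreated feeder cultures, and 8.76 and 11.3 in the IL-15 cultures. On that measure the lower Adora2a value of the anti-TIM-3 cultures lay under both IL-15 values. As counts per 100000, Ada was at 21.7 and 13.02 in the anti-TIM-3 cultures, 7.90 and 3.89 in the untreated feeder cultures, and 24.4 and 17.2 in the IL-15 cultures, so both untreated feeder cultures were the lowest there as well.

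Ratios between genes of the same library do not depend on any scale, and were compared between groups as a description, without a test. The level of a ratio mixes in probe efficiency, so only differences between libraries are read. The log2 ratio of Ada over Adora2a, degrading enzyme over receptor, was 1.39 and -0.36 in the anti-TIM-3 cultures, -0.77 and -2.15 in the untreated feeder cultures, and 1.48 and 0.60 in the IL-15 cultures. Both untreated feeder cultures lay below the other 4, and the mean difference was 1.97 for anti-TIM-3 minus untreated feeder and -2.50 for untreated feeder minus IL-15. The log2 ratio of Nt5e over Adora2a was 0.58 and 0.26 in the anti-TIM-3 cultures, -0.81 and -1.63 in the untreated feeder cultures, and -0.40 and -1.56 in the IL-15 cultures. Both anti-TIM-3 cultures were above the other 4.

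The log2 ratio of Nt5e over Ada, producing over degrading enzyme, was -0.80 and 0.62 in the anti-TIM-3 cultures, -0.05 and 0.51 in the untreated feeder cultures, and -1.88 and -2.16 in the IL-15 cultures. The 4 libraries expanded on feeder cells were all above both IL-15 cultures, and the anti-TIM-3 and untreated feeder cultures overlapped. The log2 ratio of Nt5e over Entpd1, the second ectoenzyme over the first, was -0.65 and -0.62 in the anti-TIM-3 cultures, -1 and -1.85 in the untreated feeder cultures, and -2.87 and -1.84 in the IL-15 cultures. Here too the anti-TIM-3 cultures were the highest.

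The log2 ratio of Ada over Entpd1 was 0.15 and -1.24 in the anti-TIM-3 cultures, -0.95 and -2.36 in the untreated feeder cultures, and -0.99 and 0.32 in the IL-15 cultures. It overlapped between groups in all 3 comparisons, unlike that of Ada over Adora2a. The log2 ratio of Adora2a over Entpd1 was -1.23 and -0.88 in the anti-TIM-3 cultures, -0.19 and -0.22 in the untreated feeder cultures, and -2.46 and -0.29 in the IL-15 cultures. Both untreated feeder cultures were above the other 4 libraries, though IL-15 replicate 3 was almost level with them.

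**Figure D4:**
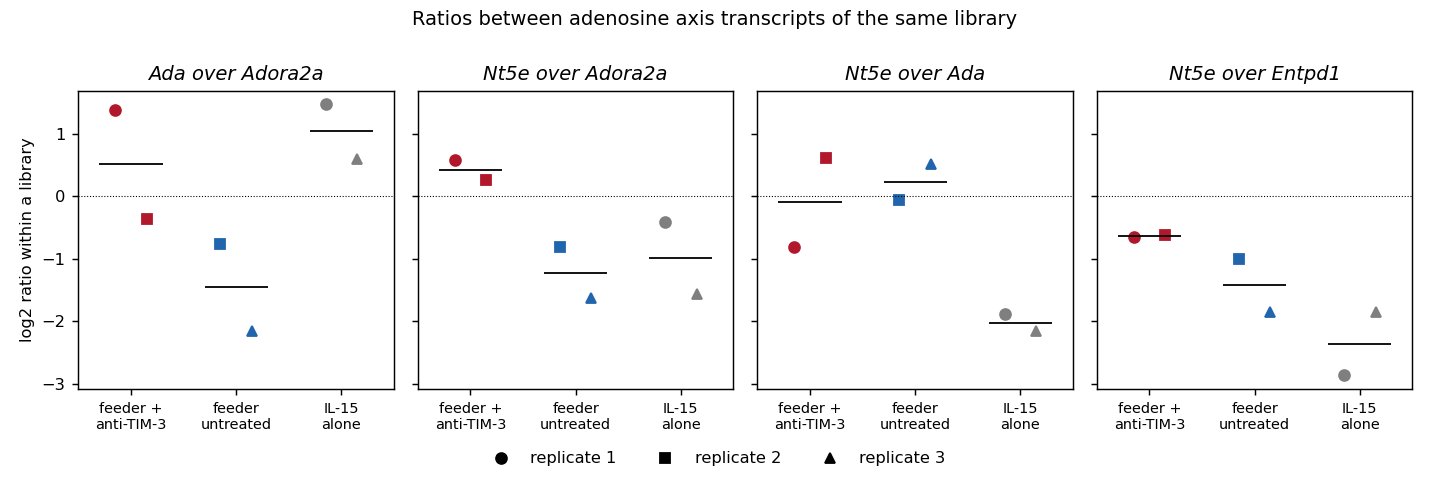
Log2 ratios (y axis) between adenosine axis genes within each library, by group on the x axis; symbols give the replicate number and horizontal lines the group means. Ada over Adora2a is lowest in both untreated feeder cultures (-0.77 and -2.15), and Nt5e over Ada is lowest in both IL-15 cultures (-1.88 and -2.16).

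Of 26 listed enzymes and transporters of adenosine and purine metabolism, 5 were in the table, the 3 enzyme genes above with Cd38 and Hprt. In the anti-TIM-3 against untreated feeder comparison 3 rose and none fell, where 31.4% of all tested genes were called higher. The third rise was Cd38, encoding an ectoenzyme that consumes NAD and whose product can be converted to AMP, the substrate of CD73 (1.27 ± 0.32, limma adjusted p = 0.0249). Hprt, a purine salvage enzyme gene that is also a housekeeping probe and so part of the scale, was at -0.48 ± 0.18 (limma adjusted p = 0.0881). Against the IL-15 cultures Cd38 was higher by 2.07 ± 0.32 (limma adjusted p = 0.00514). In the comparison with untreated feeder cultures no rise on this list passed on any of the 4 other scales, and Hprt fell with TMM, total count and median of ratios. Of 11 listed receptors for adenosine and ATP, Adora2a was the single gene in the table.

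Of 5 measured genes of cAMP and CREB signalling, the pathway downstream of the adenosine receptor, 2 rose in the anti-TIM-3 against untreated feeder comparison and none fell, a share near the 31.4% of all tested genes called higher. They were Creb1, a cAMP-responsive transcription factor gene (1.30 ± 0.22), and Crebbp, encoding its coactivator (1.07 ± 0.24), with limma adjusted p-values of 0.0104 and 0.0177. With TMM, total count and median of ratios 1 of them rose, and with positive controls neither did. Both measured hypoxia genes, Hif1a and Vegfa, fell on all 5 scales, where 7.21% of all tested genes were called lower on the housekeeping scale. Hif1a, encoding a transcription factor that induces CD73 in other cells, was at -0.94 ± 0.19 (limma adjusted p = 0.0151). Of 13 tested primary immunodeficiency genes, the disease class of Ada, 4 rose and 2 fell, and with TMM 1 rose and 2 fell. Their median log2 fold change was 0.51, against 0.47 over all tested genes. Among the NF-kB genes on the list, 13 were tested, with 9 that rose and 0 that fell, and 3 to 6 that rose on the 4 other scales. Among NK effector genes, 12 were tested, with 7 that rose and 1, the perforin gene Prf1, that fell. On the 4 other scales 6 or 7 of the NK effector genes rose and 1 or 2 fell. The counts on the housekeeping scale stand beside 31.4% of all tested genes called higher and 7.21% called lower. Those on the 4 other scales stand beside 7.44% to 14.4% called higher and 8.6% to 11.6% called lower. Against the IL-15 cultures, where 44% of all tested genes were called higher and 6.98% lower, 3 of the cAMP and CREB genes, 10 of the NF-kB genes and 7 of the NK effector genes rose, and Prf1 fell. On the 4 other scales none of the cAMP and CREB genes rose, and 1 fell with TMM and with median of ratios. There 1 to 4 of the NF-kB genes rose, and 6 or 7 of the NK effector genes rose while 2 fell. Of all tested genes, 10.9% to 18.6% were called higher and 10.9% to 17.7% lower on those scales.

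Markers of NK cells moved as well as those of other cells. Of 11 NK cell markers, 5 rose in the anti-TIM-3 against untreated feeder comparison, where 31.4% of all tested genes were called higher. The 5 were Klrb1c (2.03 ± 0.46), Itga2 (1.99 ± 0.31), Ncr1 (1.53 ± 0.35), Tbx21 (1.44 ± 0.25) and Klrd1 (1.44 ± 0.36). Eomes (-0.72 ± 0.18) and Prf1 (-2.41 ± 0.39) fell, where 7.21% were called lower. On the 4 other scales 1 to 3 rose and 1 or 2 fell. Among markers of myeloid and dendritic cells, 7 were tested, and 4 rose in the anti-TIM-3 against untreated feeder comparison and none fell. On each of the 4 other scales 1 of the 7 rose, where 7.44% to 14.4% of all tested genes were called higher. The 4 called on the housekeeping scale, beside 31.4% of all tested genes called higher, were Cd74 (3.13 ± 0.90), H2-Aa (2.39 ± 0.45), Itgax (1.71 ± 0.47) and Ccr2 (0.61 ± 0.18). Their limma adjusted p-values were 0.0372, 0.0120, 0.0337 and 0.0382. Cd68 (0.75 ± 0.30), H2-Ab1 (-0.006 ± 0.558) and Cd14 (-1.12 ± 0.59) were not called. Against the IL-15 cultures 6 of the 7 rose, and 3 on each other scale. Of all tested genes, 44% were called higher there, and 10.9% to 18.6% on the other scales. The summed normalised count of the 9 measured markers was 5527 and 6079 in the anti-TIM-3 cultures, against 3545 and 3494 in the untreated feeder cultures and 2760 and 2965 in the IL-15 cultures, and most of it was Ccr2.

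Of 4 tested markers of other innate lymphoid cells, 3 rose against the untreated feeder cultures, namely Cxcr6 (2.26 ± 0.32), Kit (1.43 ± 0.25) and Gata3 (1.20 ± 0.25), and Icos fell (-1.38 ± 0.30), with limma adjusted p-values of 0.00884, 0.0104, 0.0159 and 0.0172. The sum of the 5 measured members was 2064 and 2078 in the anti-TIM-3 cultures, against 1006 and 1230 in the untreated feeder cultures and 1091 and 943 in the IL-15 cultures. Of the mast cell markers Kit rose and Cma1 fell (-5.21 ± 1.05, limma adjusted p = 0.0148). Cma1 had 6 and 1 counts in the anti-TIM-3 cultures, both below the limit of the negative controls. The untreated feeder cultures had 49 and 268, far apart, so the size of its fall is imprecise. On the housekeeping scale both lists stand beside 31.4% of all tested genes called higher and 7.21% called lower. With the 4 other scales 1 to 3 of the innate lymphoid markers rose and 1 fell. Cma1 fell on each of those scales, and Kit rose on all but positive controls. Of all tested genes, 7.44% to 14.4% were called higher there and 8.6% to 11.6% lower. The 4 measured mast cell markers summed to between 249.5 and 475.8 in all libraries.

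For regulatory T cells, a type that carries CD39 and CD73, the 3 measured markers summed to 598 and 698 in the anti-TIM-3 cultures, against 485 and 603 in the untreated feeder cultures and 774 and 390 in the IL-15 cultures. Most of the sum was Il2ra, and the members went apart. Foxp3, also on the list, was not in the table. Ctla4 was at -2.60 ± 0.90 against the untreated feeder cultures (limma adjusted p = 0.0640) and fell against the IL-15 cultures (-2.91 ± 0.90, limma adjusted p = 0.0371). Its counts were 12 and 7 in the anti-TIM-3 cultures, the 7 below that library's limit of the negative controls. The untreated feeder cultures were far apart, at 31 and 160. Within the IL-15 cultures, Il2ra and Ctla4 were higher in replicate 1, as Entpd1 was, with 689 against 372 counts and 182 against 84 counts, while Ikzf2 had 56 counts in replicate 1 and 77 in replicate 3.

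For the 2 T cell markers the sum was 141 and 120 in the anti-TIM-3 cultures, against 279 and 304 in the untreated feeder cultures and 67.6 and 110.5 in the IL-15 cultures, so the untreated feeder cultures, lowest in Ada, were highest in these markers. The 4 measured B cell markers summed to between 38.4 and 69.5 in all libraries. Of the feeder line ligands, Icam1 had 440 and 607 counts in the anti-TIM-3 cultures, against 161 and 99 in the untreated feeder cultures and 102 and 176 in the IL-15 cultures. Cd86 had 7 and 6 counts in the anti-TIM-3 cultures and 6 and 9 in the IL-15 cultures, all below the limit of the negative controls. In the untreated feeder cultures it had 24 and 13 counts, above the limit. The part of other cells in these results was not tested.

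Genes whose pattern over the 6 libraries was most like each member were named by Pearson correlation of the deposited log2 values, with no p, since all values of a library share its scale and depth. Ada was most like Mavs, encoding an antiviral signalling adaptor (r = 0.96), Abcf1, a housekeeping probe (0.96), and Vegfc (0.88), Mapk11 (0.86) and Ecsit (0.84), and least like Gpi1 (-0.84), Cd3d (-0.84) and Hprt (-0.80). Adora2a was most like the ribosomal protein gene Rps6 (r = 0.96), Txnip (0.95), Vhl (0.92), Mapkapk2 (0.89) and Il10ra (0.89), and least like Gpr183 (-0.90), Nup107 (-0.85) and Gusb (-0.77). Nt5e was most like Pou2f2 (r = 0.99), Trp53 (0.99), Yy1 (0.98), Mr1 (0.97) and Irf3 (0.97), and least like H2-Q10 (-0.95) and Eomes (-0.91). The median correlation of Nt5e with all tested genes was itself 0.75, against 0.19 for Ada, 0.40 for Adora2a and 0.26 for Entpd1. Entpd1 was most like Sigirr (r = 0.96), Mapk14 (0.92), Atf2 (0.90), Il2ra (0.89) and Cd40lg (0.84). It was least like the tubulin gene Tubb5, also a housekeeping probe (-0.95), H2-Q10 (-0.80) and Cdk1 (-0.76). Some of these genes were below the negative control limit of a library. In untreated feeder replicate 3 these were Mapk11 (10 counts) and Cdk1 (8). In anti-TIM-3 replicate 2 they were H2-Q10 (9) and Cdk1 (6), and in IL-15 replicate 3 Cd40lg (10). Among the members, Ada and Adora2a were at r = -0.54, and the 2 ectoenzyme genes Nt5e and Entpd1 at 0.60.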

How the data were processed

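RNA of purified mouse NK cells was measured in 6 libraries, grouped by the expansion method and treatment in the labels. The authors deposited log2 values of 532 probes: 498 endogenous genes, 20 housekeeping genes and 14 spike-in controls. The scaling was read from these log2 values: the housekeeping mean was 9.22 in every library. The submitters' processing notes name limma without saying for what. The labels describe quantitative PCR, whereas the deposited probes and controls are those of NanoString. Dividing by the smallest step of each library, separately for genes and controls, made 100% of values whole within 0.01; 1 control value was empty and taken as 0. A further 18 columns and 12 quality rows named by instrument lane were not used. A second file, the authors' deposited table of a comparison, lists each gene's log2 fold change with a score, p-value and q-value.

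The tests used limma 3.58.1 (R 4.3.3; trend and robust moderation) on the deposited log2 values, in a model of 3 groups over all 6 libraries, without a pseudocount. Genes needed 20 counts in 2 libraries, which kept 430 and left out 88. The script was tested on simulated data. Negative control means ran from 4.25 to 6.13 counts; Poisson intervals (scipy 1.17.1) cover counting error only. The members and lists were chosen with earlier results of these data known. Named genes were the members, the 5 most and 3 least alike of each, and called list members; a gene that this rule selects is not reported here. Alternatives were 4 scales, count filters, background subtraction, no moderation, 2-group fits, a replicate block, each library left out and, added after seeing the data, voom weights.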

Additional observations from a re-analysis of the deposited data

How the results depend on the processing

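The call on Ada in the anti-TIM-3 against untreated feeder comparison (log2 fold change 1.86) ended with TMM (1.26), positive controls (1.35), total count (1.60), median of ratios (1.37) and the replicate block (1.43), and ranged from 1.47 to 2.25 with each library left out. That on Nt5e (1.54) ended with TMM (0.96), positive controls (1.03), total count (1.28), median of ratios (1.05), a filter of 50 counts (1.54), subtraction of negative controls (1.72) and the replicate block (1.34), and ranged from 1.11 to 1.97. Adora2a took the other sign with the block (0.27) and ranged from -0.70 to 0.48. Against IL-15, Nt5e (2.18) ended with positive controls (1.45) and the replicate block (1.82), and ranged from 1.73 to 2.64. There Ada, never called, turned negative with TMM (-0.43), positive controls (-0.48), total count (-0.28), median of ratios (-0.42) and the block (-0.017), and ranged from -0.061 to 0.57. Entpd1, never called, turned negative with TMM (-0.24), positive controls (-0.27), total count (-0.077) and median of ratios (-0.21), and ranged from -0.50 to 1.43. In the feeder comparison Entpd1 ranged from -1.25 to 0.68.

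The number of genes called after anti-TIM-3 against untreated feeder cultures (166) was 103 with TMM, 69 with positive controls, 99 with total count, 102 with median of ratios, 61 with the replicate block and 0 to 171 with each library left out, the 0 without untreated feeder replicate 3. Against IL-15 (219) it was 94 with positive controls, 129 with total count, 76 with the block and 113 to 199 with each library left out. In the feeder comparison (0) it was 1 with positive controls and 0 to 7 with each library left out. The split of higher and lower calls, 135 and 31 after anti-TIM-3, was 53 and 50 with TMM, where the median of all tested genes was -0.06 in place of 0.47. Titles of same-numbered libraries begin alike, and whether these libraries share a preparation is not stated. Deviations of same-numbered libraries from their group means correlated at 0.08, 0.04 and -0.41. With 2 libraries in a group the deviations are equal and opposite, so these correlations cannot show whether the libraries are paired. With voom weights the calls on Ada and Nt5e passed, and a fit with 1 library in a group assumes that it varies like the others. The cause of these changes was not tested. Counts of 14 to 204 per library limit the precision for all 4 genes.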
